A study of Mus musculus with 7 samples.

Results

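The mitochondrial ribosome translates the few proteins encoded by mitochondrial DNA, all of them subunits of the respiratory chain and ATP synthase. Its own proteins are encoded in the nucleus, made on cytosolic ribosomes and imported, so a single particle draws on genes scattered over the chromosomes. The genes named Mrpl encode proteins of the large subunit and those named Mrps mostly proteins of the small subunit. All rows of the deposited expression table whose symbol begins with Mrpl or Mrps and a digit were taken, with pseudogenes left out, which gave 77 of 24341 genes (48 Mrpl and 29 Mrps). All 77 passed the filter on low values described further on. They are compared here with the 79 genes for cytosolic ribosomal proteins and chromosome by chromosome.

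RNA was sequenced from splenic B-cell precursor (BCP) cells, sorted by flow cytometry for the surface marker BP-1, of Emu-Ret hemizygote mice on a BALB/c background. In these mice an oncogenic Ret fusion is driven by the immunoglobulin heavy chain enhancer, so both groups carry the transgene and neither is normal tissue. The leukemic group held 3 moribund, older mice with overt disease, and the preleukemic group held 4 young, healthy mice. The study's methods describe the sort for preleukemic cells, while leukemic spleen cells for its cultures were mostly not enriched. Animals of both sexes were used, the ages of the single mice are not given in the sources used here, and age differs with disease state, so the 2 cannot be told apart. Leukemias of this model carry extra copies of chromosome 17 and, in varying combinations, of chromosomes 9, 12, 14 and 15, which is why these chromosomes are set apart below. Chromosome copies of the 7 sequenced samples were not analysed here.

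Positions are those of the table on GRCm38. Expression is given in FPKM, fragments scaled to transcript length and to the depth of the sample, so levels may be compared between genes. Low values stepped in whole fragments, which placed the depth at about 15340000 to 16160000 fragments in the leukemic and 13600000 to 14740000 fragments in the preleukemic samples. At that depth a transcript of 1000 bases at 10 FPKM rests on 136 to 162 fragments, a counting error of 7.87% to 8.57%. The members lay between 3.76 FPKM and 171 FPKM in single samples, and none was at the floor of the table. Differences are leukemic minus preleukemic on log2(FPKM + 1), with the standard error of the limma fit, and a gene was called where the p adjusted over all 10541 genes tested was under 0.05. Summed FPKM of 15 erythroid genes was 5641 to 26248 in the leukemic and 379 to 2763 in the preleukemic samples, with 14 of 14 tested higher and Hbb-bs alone listed at the floor in every sample. The corresponding sums were 164 to 364 against 38.2 to 89.2 FPKM for 12 macrophage genes (7 of 10 higher), 1464 to 1823 against 154 to 893 FPKM for 12 neutrophil genes (6 of 12 higher), and 27.0 to 88.4 against 27.1 to 33.2 FPKM for 11 T and NK cell genes (0 of 9 called). For 15 BCP genes the sums were 4281 to 6798 against 8283 to 10386 FPKM, with 4 of 15 lower and none at the floor. In 11 of the 15 the leukemic samples lay wholly below the preleukemic samples and in 0 wholly above, with a median log2 difference of -0.70. Over all genes tested, 8.47% were called higher and 6.26% lower, and 17.1% were wholly below. The part of these other cells in the values below was not tested, and in such bulk samples fewer cells of a type and less RNA per cell cannot be told apart.

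As a group, the mitochondrial ribosomal protein genes lay slightly above the other genes in leukemic BCP cells. With FPKM, TPM and median-of-ratios scaling they stood less far above than the genes of the cytosolic ribosome. The gap nearly closed with quantile normalization, which levels the highest values between samples. Of the 77 members, 11 were called higher and 0 lower (14.3% higher, against 8.47% of all genes tested higher and 6.26% lower). At an unadjusted p under 0.05, 18 were higher and 2 lower (23.4% and 2.60%, against 16.5% and 17.5% of all genes). The median log2 difference was 0.15 over the members, -0.02 over all genes tested and 0.41 over the cytosolic ribosomal protein genes, but when each sample's FPKM values were scaled to the same sum (TPM) the members' median became -0.01 and the median of all genes -0.18. Relative to the median gene, the members stood at 0.17 and the cytosolic ribosomal protein genes at 0.43 with FPKM, TPM and median-of-ratios scaling alike. With quantile normalization, which gives every sample the same distribution of values, the medians were 0.12 and 0.14, or 0.18 and 0.20 above the median gene. The difference was above 0 in 68 of 77 members, against 47.9% of all genes, and in 33 of 77 with TPM. The count of calls moved with single samples, and was 7 without leukemic sample 1, 7 without leukemic sample 2, 12 without leukemic sample 3, and 6, 3, 4 and 1 without preleukemic samples 1 to 4 in turn. The share of all genes called higher moved with it, from 8.17%, 8.25% and 6.75% without leukemic samples 1 to 3 to 5.8%, 2.8%, 1.9% and 1.02% without preleukemic samples 1 to 4. The log2 difference of the 11 members stayed at 0.29 or more in each of these fits, and Mrps34 alone was called in all 7.

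**Figure D1:**
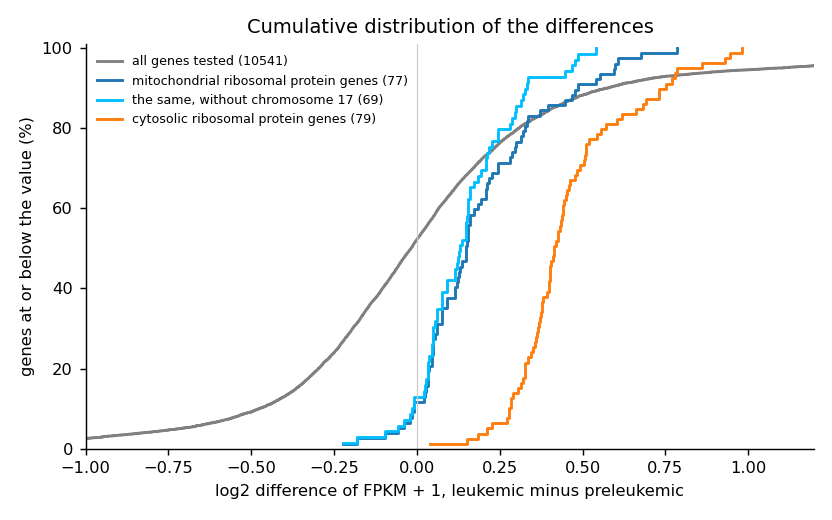
Cumulative share of genes (vertical axis, percent) at or below each log2 difference of FPKM + 1, leukemic minus preleukemic (horizontal axis, shown from -1 to 1.2), for all genes tested, the 77 mitochondrial ribosomal protein genes, the same without chromosome 17, and the 79 cytosolic ribosomal protein genes. Around its median the curve of the mitochondrial set lies between those of all genes and the cytosolic set. Its median is 0.15 (-0.01 with TPM) against 0.41 for the cytosolic set. With quantile normalization, which levels the highest values between samples, the medians were 0.12 and 0.14.

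The rise was not shared evenly by the 3 leukemic samples. Summed over the 77 members, expression was 4006, 3726 and 3327 FPKM in leukemic samples 1 to 3 and 3268, 2975, 3264 and 3096 FPKM in preleukemic samples 1 to 4. As a share of all FPKM these sums were 0.786%, 0.690% and 0.656% against 0.710%, 0.664%, 0.692% and 0.658%, so the shares of the groups overlapped. Leukemic sample 1 lay above all preleukemic samples in 57 of 77 members (74.0%, against 38.6% of all genes), leukemic sample 2 in 52 (67.5%, against 32.0%), and leukemic sample 3 in 24 (31.2%, against 30.4%). By this measure leukemic sample 3 differed little from its own background, while leukemic samples 1 and 2 stood well above theirs. The 24 members of leukemic sample 3 included all 8 of chromosome 17 and all 3 of chromosome 9. Of the 62 members off chromosomes 9, 12, 14, 15 and 17, the counts were 43, 39 and 11 in leukemic samples 1 to 3. The share of all genes there is not given here. For cytosolic ribosomal protein genes, the counts above all preleukemic samples were 77, 77 and 78 of 79 in leukemic samples 1 to 3. Of the 79, 69 were called higher (10 to 61 with a sample left out). With quantile normalization 14 of the 79 were called higher and 1 lower, against 7.15% of all genes called higher, and 10 members were called higher. With median-of-ratios scaling 70 of the 79 and 11 members were called higher, against 936 of all 10541 genes. Summed expression of the cytosolic genes was 94929 to 98266 FPKM in the leukemic and 67026 to 72271 FPKM in the preleukemic samples, with no overlap. The highest erythroid sum was that of leukemic sample 2. Leukemic sample 1 had the highest sum over the members and the lowest sum of BCP genes (4281 FPKM). Summed FPKM of 24 proliferation genes was 3590, 2578 and 2047 in leukemic samples 1 to 3 and 2326, 1376, 2093 and 1828 in preleukemic samples 1 to 4. Within both groups these sums had the same order of samples as the sums over the members, and leukemic sample 3 lay within the preleukemic range. The part of proliferating or other cells in the members' levels was not tested, and the order of so few samples cannot decide it.

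**Figure D2:**
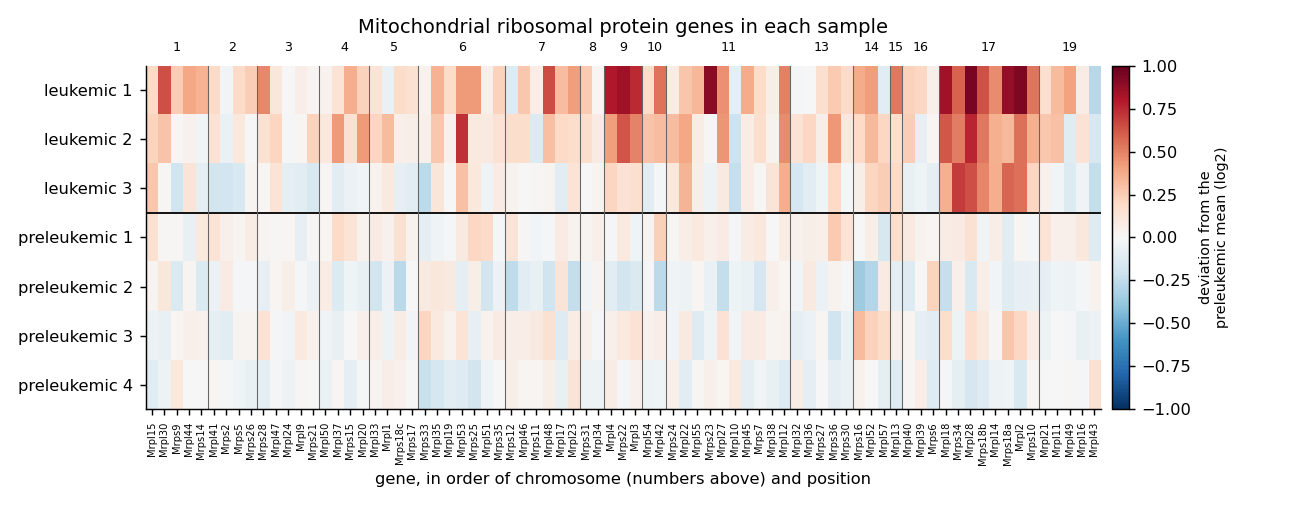
Each column is a mitochondrial ribosomal protein gene in order of chromosome and position, each row a sample, and colour gives the deviation of log2(FPKM + 1) from the mean of the 4 preleukemic samples. The 8 genes of chromosome 17 are red in all 3 leukemic samples, while many other columns are red in leukemic samples 1 and 2 and pale in leukemic sample 3.

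By symbol, 7 of 48 Mrpl genes and 4 of 29 Mrps genes were called higher, or 14.6% and 13.8% against 8.47% of all genes, with median log2 differences of 0.15 and 0.12. Without chromosome 17 these counts were 3 of 44 and 0 of 25, against 6.98% of all genes there, with medians of 0.15 and 0.09. Mean levels over the 7 samples ran from 5.60 to 139 FPKM for Mrpl genes (median 36.2) and from 4.80 to 139 FPKM for Mrps genes (median 33.3). Of the 3 members with the highest means in each class, 6 in all, Mrpl18 of chromosome 17 was called, and the other 5 were not. Mrpl52, a protein found only in mitochondrial ribosomes, was at 167, 157 and 146 FPKM in leukemic samples 1 to 3 and at 130, 102, 147 and 126 FPKM in preleukemic samples 1 to 4, a log2 difference of 0.32 ± 0.13 (SE, adjusted p = 0.12). Mrps21 showed 140, 161 and 123 FPKM against 138, 132, 142 and 137 FPKM, with 0.03 ± 0.10 (adjusted p = 0.84). Mrpl33 and Mrps26 differed by 0.13 ± 0.09 and 0.09 ± 0.09 (adjusted p = 0.36 and 0.47). With TPM the differences of Mrps21, Mrpl33 and Mrps26 were -0.13, -0.04 and -0.07.

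Most of the calls fell on a single chromosome. Chromosome 17 holds 8 members between 12911355 and 47378679 (GRCm38), and all 8 were called higher, against 33.6% of the 592 genes tested on that chromosome. The count was 5, 6 and 7 without leukemic samples 1 to 3 in turn, and 5, 3, 4 and 1 without preleukemic samples 1 to 4. In these fits the share of all genes called higher fell as well, to 1.02% at the lowest. The share for chromosome 17 alone in these fits is not given here. Of the 69 members elsewhere, 3 were called higher (4.35%, against 6.98% of genes off chromosome 17). All 8 were wholly above the preleukemic samples, against 49.5% of genes on chromosome 17. The members of chromosome 17 had a median log2 difference of 0.60, against 0.35 over all genes of the chromosome, and each of the 8 exceeded the latter value. The 62 members off chromosomes 9, 12, 14, 15 and 17 had a median of 0.12 (-0.04 with TPM), and 3 of them were called (4.84%, against 6.49% of genes there). Only 5 of the 69 members elsewhere exceeded the lowest member of chromosome 17.

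**Figure D3:**
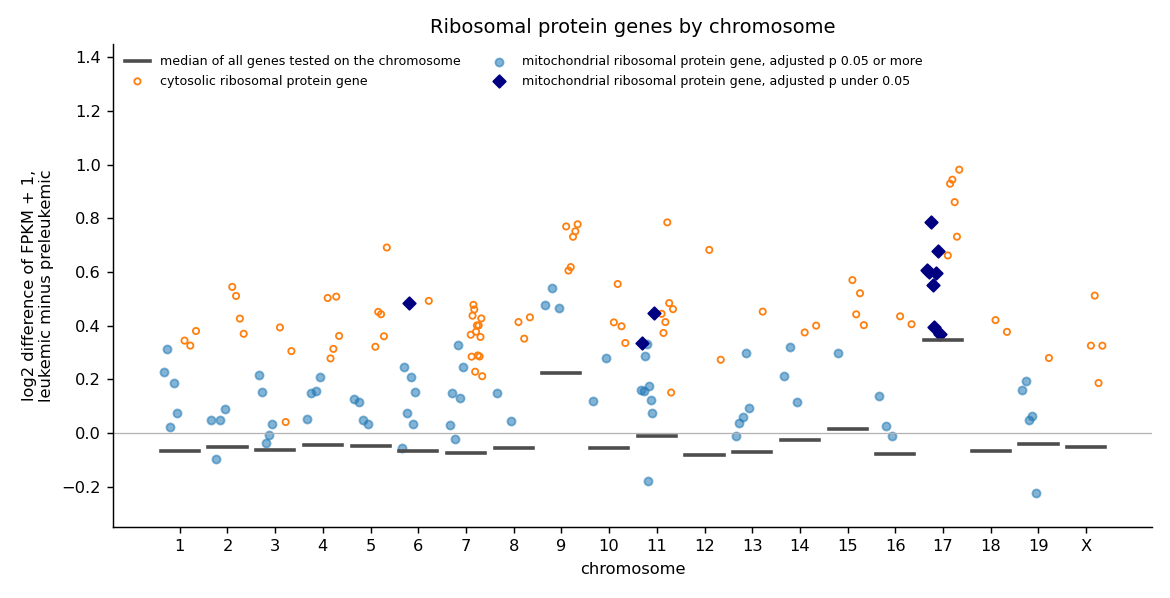
Log2 difference of FPKM + 1, leukemic minus preleukemic (vertical axis), by chromosome (horizontal axis), for mitochondrial ribosomal protein genes (diamonds where the adjusted p was under 0.05, filled circles otherwise) and cytosolic ribosomal protein genes (open circles), with bars at the median of all genes tested on each chromosome. The bars lie near 0 except at 0.22 on chromosome 9 and 0.35 on chromosome 17, and all 8 mitochondrial genes of chromosome 17 are diamonds.

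Mrpl28 (chr17:26123503-26126613), a large subunit protein, had the highest difference of all members. It was at 98.1, 85.6 and 79.1 FPKM in leukemic samples 1 to 3 and at 55.8, 45.1, 56.5 and 44.6 FPKM in preleukemic samples 1 to 4 (log2 difference 0.79 ± 0.12, adjusted p = 0.014), and its means differed 1.73-fold. Mrpl2 (chr17:46646248-46650132), a core protein near the peptidyl transferase centre, showed 94.9, 72.7 and 72.4 FPKM against 49.95, 46.5, 57.0 and 44.3 FPKM (0.68 ± 0.13, adjusted p = 0.020). In both genes every leukemic sample exceeded every preleukemic sample, and leukemic sample 1 was the highest. Mrpl18 (chr17:12911355-12916091), whose protein belongs to a family that binds ribosomal RNA in the central protuberance, reached 171, 146 and 122 FPKM against 100, 80.7, 107 and 93.7 FPKM (0.61 ± 0.14, adjusted p = 0.032). The remaining large subunit gene, Mrpl14 (chr17:45686372-45698495), encodes a protein at the interface of the subunits and was at 58.9, 54.5 and 54.6 FPKM against 44.3, 41.5, 42.7 and 40.7 FPKM (0.40 ± 0.07, adjusted p = 0.017). The lowest and highest samples of each group lay closer together for Mrpl14 than for the other 3.

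Among the Mrps genes of chromosome 17, Mrps34 (chr17:24895120-24896273), a protein particular to mitochondrial ribosomes, was at 70.1, 66.1 and 75.4 FPKM in the leukemic and 49.0, 48.0, 44.6 and 43.3 FPKM in the preleukemic samples (0.60 ± 0.08, adjusted p = 0.011). It was the only 1 of the 8 genes in which leukemic sample 3 was the highest. Mrps10 (chr17:47368887-47378679) was at 24.6, 21.5 and 19.5 FPKM against 16.4, 15.7, 17.5 and 16.8 FPKM (0.37 ± 0.10, adjusted p = 0.043), and its difference was 0.02 above the median of its chromosome. With TPM, all 8 genes kept a positive difference and 5 were called. Over the members with TPM 6 were called higher (against 6.51% of all genes) and 2 lower (against 21.2%).

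**Figure D4:**
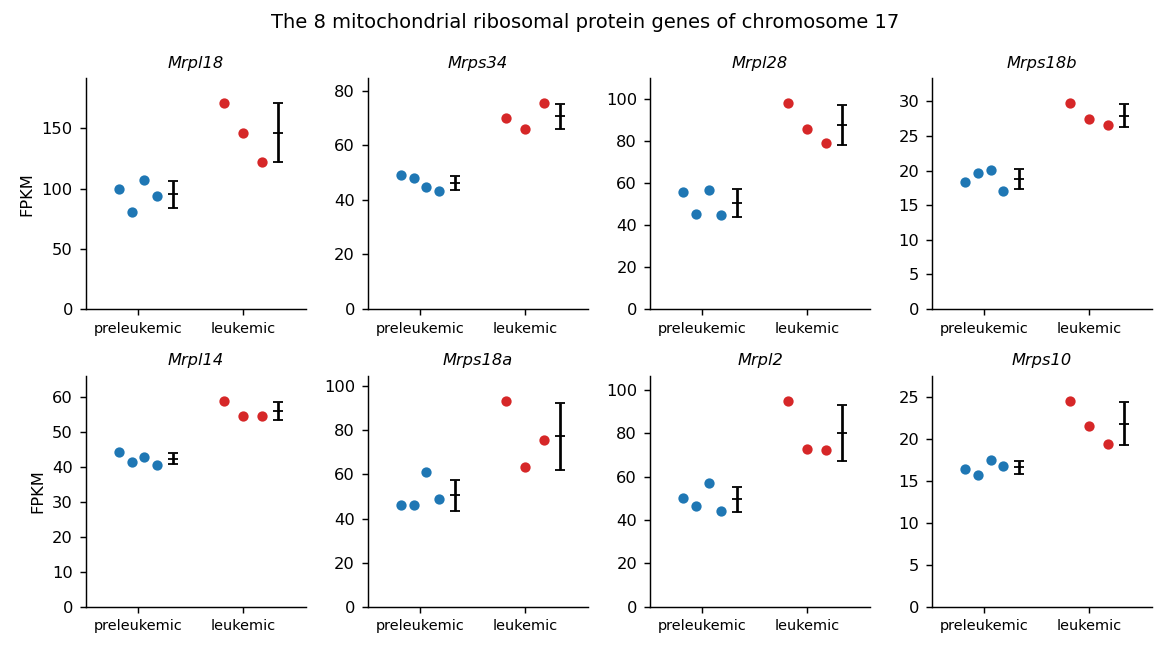
FPKM (vertical axis, from 0) of the 8 mitochondrial ribosomal protein genes of chromosome 17 in order of position, with a point for each of the 4 preleukemic and 3 leukemic samples and bars for the mean ± SD of each group. In each panel the lowest leukemic sample lies above the highest preleukemic sample.

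Mrps18a, Mrps18b and Mrps18c are paralogs that descend from the bacterial gene for protein S18, and their products sit at different places, that of Mrps18a in the large subunit and those of Mrps18b and Mrps18c in the small subunit. Mrps18a and Mrps18b lie on chromosome 17 and Mrps18c on chromosome 5. Mrps18a (chr17:46111004-46128908) was at 93.3, 63.1 and 75.7 FPKM in leukemic samples 1 to 3 and at 46.3, 46.2, 61.0 and 48.8 FPKM in preleukemic samples 1 to 4 (0.60 ± 0.16, adjusted p = 0.044). Mrps18b (chr17:35910385-35916369) showed 29.7, 27.5 and 26.6 FPKM against 18.3, 19.6, 20.1 and 17.003 FPKM (0.55 ± 0.09, adjusted p = 0.014). The third paralog, Mrps18c (chr5:100798759-100804467), was the most highly expressed, at 126, 115 and 105 FPKM against 123, 91.8, 117 and 114 FPKM, and its groups overlapped (0.05 ± 0.12, adjusted p = 0.79, and -0.11 with TPM). Both paralogs on chromosome 17 were called, and the paralog on chromosome 5 did not pass the test. The call of Mrps18a was narrow, with an adjusted p of 0.082 with TPM and 0.055 with quantile normalization. It was called in 1 of the 7 fits with a sample left out. Mrps18b was called in both of those settings (adjusted p = 0.025 and 0.014) and in 6 of the 7 fits.

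Copies in the genome and overlapping genes limit how closely some of these values can be tied to 1 gene. Mrps18b, Mrps10 and Mrpl22 each have a processed pseudogene that matches the transcript at 95% identity or more over at least 200 bases, as do 18 of the 77 members. Coding genes overlap 4 members on the same strand and 23 on the opposite strand. Among the called genes these are Nme3 on the strand of Mrps34 and Gm42688 on that of Mrpl53, and on opposite strands Mapk8ip3 (Mrps34), Tcp1 (Mrpl18), Tmem63b (Mrpl14) and Rsph9 (Mrps18a). The library kit kept the strand, but whether the FPKM values used it is not given in the sources used here. Copies and overlaps of the cytosolic ribosomal protein genes were not examined, so the same limit may hold for their values.

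When the median of each chromosome in each sample was removed, 3 of the 77 members were called higher, against 6.72% of all genes, and 0 of the 8 on chromosome 17. The median of those 8 was then 0.24. Measured instead as the distance from the chromosome's own median difference, members stood 0.25 higher on chromosome 17, 0.26 higher on chromosome 9 and 0.17 higher off chromosomes 9, 12, 14, 15 and 17 (medians), and 74 of 77 lay above the median of their chromosome. For cytosolic ribosomal protein genes the same distances were 0.55, 0.52 and 0.45. On the unadjusted scale the cytosolic genes also had their highest differences on chromosome 17 (median 0.89, 6 of 6 called) and chromosome 9 (0.74, 6 of 6), and off chromosomes 9, 12, 14, 15 and 17 52 of 59 were called (median 0.40), against 3 of 62 members. These counts are from FPKM, and fell with quantile normalization as given above. Whether more copies of chromosome 17 account for the rise of its members was not tested.

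Chromosome 9 holds Mrpl3 and Mrpl4, core proteins of the large subunit, and Mrps22, a small subunit protein particular to mitochondria. None of the 3 passed the test, against 13.1% of genes called higher on that chromosome, although in all 3 the leukemic samples lay wholly above the preleukemic samples, against 27.2% of genes there. Mrps22 (chr9:98588730-98601679) was at 41.4, 35.5 and 25.2 FPKM in leukemic samples 1 to 3 and at 24.2, 19.8, 24.3 and 22.4 FPKM in preleukemic samples 1 to 4 (0.54 ± 0.17, adjusted p = 0.070). Mrpl4 (chr9:21002737-21008837) showed 68.0, 51.7 and 44.7 FPKM against 38.1, 35.6, 39.8 and 40.7 FPKM (0.48 ± 0.14, adjusted p = 0.061). For Mrpl3 (chr9:105053268-105077476) the values were 85.9, 72.1 and 57.1 FPKM against 49.5, 45.9, 56.2 and 52.5 FPKM (0.47 ± 0.14, adjusted p = 0.068). All 3 genes had leukemic sample 1 highest and leukemic sample 3 just above the preleukemic range. Without leukemic sample 3 all 3 were called, against 6.75% of all genes called higher in that fit. The share for chromosome 9 alone in that fit is not given here. Over all genes of that chromosome, leukemic sample 3 was the lowest of the leukemic samples, as given below.

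The genes of chromosome 9 as a whole showed the same order of samples. The median deviation from the preleukemic mean over its 596 genes was 0.32, 0.25 and 0.07 in leukemic samples 1 to 3, and over its 3 members 0.80, 0.50 and 0.16. On chromosome 17 the deviations over all 592 genes were 0.35, 0.33 and 0.38, and over its 8 members 0.74, 0.52 and 0.52. Among the preleukemic samples, sample 3 had the highest deviations on both chromosomes, at 0.10 over all genes of chromosome 17 and 0.09 over those of chromosome 9, and 0.13 and 0.10 over the members. Members off chromosomes 9, 12, 14, 15 and 17 deviated by 0.19, 0.15 and -0.0047 in leukemic samples 1 to 3 and by -0.04 to 0.05 in the preleukemic samples. Leukemic sample 3 was thus within the preleukemic range for these members and above it for those of chromosome 17.

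**Figure D5:**
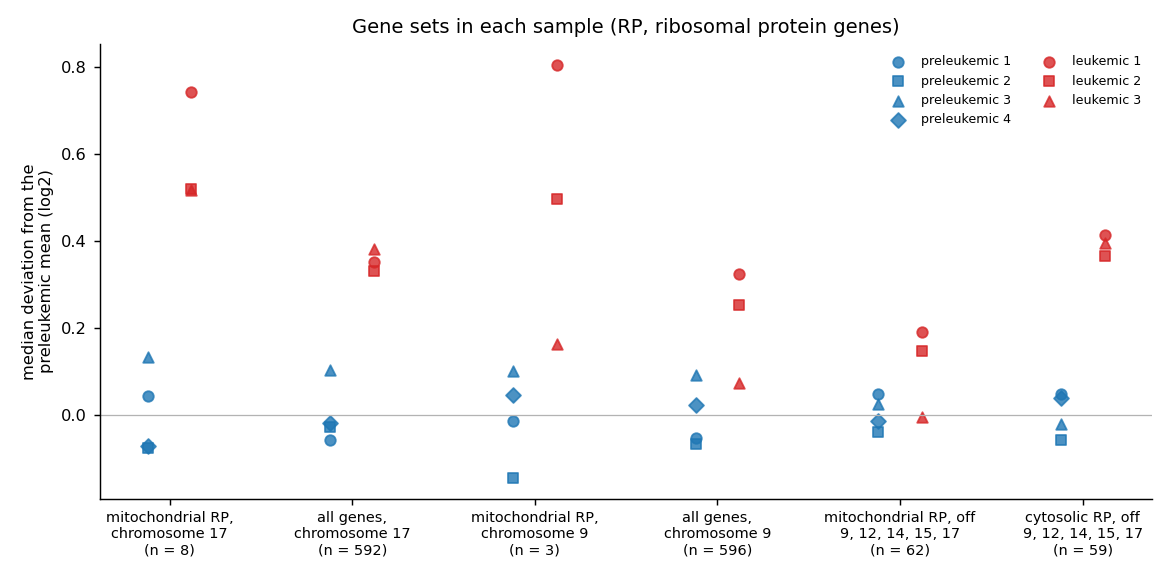
Median deviation of log2(FPKM + 1) from the preleukemic mean (vertical axis) in each sample for 6 gene sets (horizontal axis), with blue symbols for the 4 preleukemic and red symbols for the 3 leukemic samples. Leukemic sample 3 (red triangles) is at 0.52 for the members of chromosome 17, 0.16 for those of chromosome 9 and -0.0047 for those off chromosomes 9, 12, 14, 15 and 17, where the cytosolic ribosomal protein genes are at 0.39.

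Chromosomes 14 and 15 hold 4 members (Mrps16, Mrpl52, Mrpl57 and Mrpl13), of which 0 were called and 0 separated the groups, against 7.63% called higher and 13.6% wholly above among the 760 genes tested there, with log2 differences of 0.12 to 0.32. Mrpl13 of chromosome 15 was at 109, 84.7 and 86.9 FPKM in the leukemic and 85.2, 70.5, 78.2 and 68.8 FPKM in the preleukemic samples (0.30 ± 0.12, adjusted p = 0.13). Over all genes of chromosomes 14 and 15, leukemic sample 3 was the only leukemic sample above the preleukemic mean, with median deviations of 0.13 and 0.19 against -0.11 to -0.05 in leukemic samples 1 and 2, though preleukemic sample 3 was also at 0.13 on chromosome 14. Mrpl13 did not follow that order, since its highest value was in leukemic sample 1. No member lies on chromosome 12, 18 or X.

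The 3 called members off chromosome 17 were Mrpl12 and Mrpl22 on chromosome 11 and Mrpl53 on chromosome 6. Mrpl12 (chr11:120484669-120488754), which forms the stalk that recruits translation factors to the ribosome, was at 114, 111 and 103 FPKM in leukemic samples 1 to 3 and at 84.5, 81.0, 82.0 and 73.0 FPKM in preleukemic samples 1 to 4 (0.45 ± 0.08, adjusted p = 0.017). Mrpl53 (chr6:83101516-83109932), a mitochondria-specific protein, showed 48.4, 60.0 and 44.0 FPKM against 38.0, 33.3, 39.2 and 32.6 FPKM (0.49 ± 0.13, adjusted p = 0.043). GENCODE places Mrpl53 at chr6:83109040-83109939, so the span of the deposited table starts further upstream. Mrpl22 (chr11:58171654-58179581), which lines the exit tunnel, was at 29.0, 31.4 and 30.3 FPKM against 24.9, 22.9, 25.3 and 21.95 FPKM (0.34 ± 0.08, adjusted p = 0.036). In these 3 genes all leukemic samples, including sample 3, exceeded all preleukemic samples. Chromosome 11 as a whole had a median difference of -0.01, and its 10 members one of 0.17.

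Over the whole set, 19 members were wholly above the preleukemic samples (24.7%, against 14.9% of all genes) and 2 wholly below (against 17.1%). Of the 19, 8 lie on chromosome 17, 3 on chromosome 9 and 8 elsewhere. The 2 below were Mrpl43 and Mrpl10. Mrpl43, which encodes a large subunit protein, was at 44.8, 48.6 and 46.0 FPKM in the leukemic and 49.7, 55.7, 52.3 and 60.6 FPKM in the preleukemic samples (-0.22 ± 0.09, adjusted p = 0.12). Mrpl10, the anchor of the stalk formed by Mrpl12, was at 35.2, 32.4 and 31.8 FPKM against 37.1, 36.2, 37.0 and 40.3 FPKM (-0.18 ± 0.08, adjusted p = 0.15). Neither passed the test, and with TPM both were the members called lower (-0.39 and -0.35, adjusted p = 0.020 and 0.022). The next lowest differences, those of Mrps2, Mrps33 and Mrpl24, were -0.10, -0.06 and -0.04 with overlapping groups. Among members that were higher but not called, the smallest adjusted p after those of chromosome 9 were 0.12 for Mrpl15 (0.23 ± 0.09) and Mrpl52 (given above), 0.13 for Mrpl27 (0.33 ± 0.13) and Mrpl13 (given above), and 0.15 for Mrps36 (0.30 ± 0.13).

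Few of the other genes for mitochondrial gene expression were called, where 8.47% of all genes tested were called higher and 6.26% lower. Of 6 ribosomal proteins of the mitochondrion with other symbols, 0 were called, with a median log2 difference of 0.13. In 3 of the 6 the leukemic samples lay wholly above and in 0 wholly below (against 14.9% and 17.1% of all genes). Chchd1 showed 106, 107 and 109 FPKM against 86.9, 81.2, 104 and 84.6 FPKM (0.27 ± 0.10, adjusted p = 0.098), and the groups did not overlap. Aurkaip1 and Ict1 differed by 0.01 ± 0.10 and 0.05 ± 0.10 (adjusted p = 0.97 and 0.73). Of 26 tested genes for assembly of the mitochondrial ribosome, which process and modify its RNA and join its parts, 0 were called and the median was -0.04. The best expressed of these were Dhx30 (0.08 ± 0.08), Grsf1 (0.03 ± 0.09) and Ngrn (-0.20 ± 0.09, adjusted p = 0.18).

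Among 16 translation and messenger RNA factors of the mitochondrion, 1 was called higher and 0 lower (against 8.47% and 6.26% of all genes), and the median was 0.03. The called gene was Lrpprc, which stabilizes mitochondrial messenger RNA and lies on chromosome 17. It was at 35.04, 36.8 and 36.8 FPKM in leukemic samples 1 to 3 and at 28.4, 30.3, 30.5 and 25.1 FPKM in preleukemic samples 1 to 4 (0.34 ± 0.09, adjusted p = 0.047). Slirp, the binding partner of Lrpprc, lies on chromosome 12 and differed by 0.16 ± 0.13 (adjusted p = 0.40), and Oxa1l, which inserts new proteins into the inner membrane, by 0.14 ± 0.16 (adjusted p = 0.55). Of 10 tested genes for transcription and replication of mitochondrial DNA, 0 were called and the median was -0.17. In 4 of the 10 the leukemic samples lay wholly below and in 0 wholly above (against 17.1% and 14.9% of all genes). Tfam, which packages that DNA, was at -0.16 ± 0.10 (adjusted p = 0.29), Polg at -0.15 ± 0.07 (adjusted p = 0.19) and Ssbp1 at 0.16 ± 0.10 (adjusted p = 0.29). Of 13 listed genes encoded by mitochondrial DNA itself, 0 were found by symbol in the deposited table, so they were not analysed here.

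Regulators known for control of genes for mitochondrial proteins were also tested. Of 9 such genes 0 were called (against 8.47% of all genes higher and 6.26% lower), with a median of -0.07. Gabpb1, which pairs with the ETS family factor Gabpa, was at 38.4, 32.9 and 26.5 FPKM in leukemic samples 1 to 3 and at 42.1, 43.4, 45.6 and 48.4 FPKM in preleukemic samples 1 to 4 (-0.46 ± 0.13, adjusted p = 0.051). The groups did not overlap, and leukemic sample 3 was the lowest. Yy1 was nearly level (-0.07 ± 0.07, adjusted p = 0.54). Myc ranged from 54.8 to 139 FPKM among the leukemic and from 50.3 to 146 FPKM among the preleukemic samples (0.32 ± 0.43, adjusted p = 0.62), so its groups overlapped. Of 24 proliferation genes 1 was called higher (against 8.47% of all genes), with a median of 0.48 (sums given above).

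Promoters of the members were read for short motifs of the factors named above. RefSeq promoter windows (GRCm38.p6, 250 bases before to 50 bases after the start) were found for 68 of the 77 members. The windows were searched on both strands for GCATGCGC (an NRF1 motif), CCGGAAG (an ETS motif), AAGATGGC (a YY1 motif) and CACGTG (an E-box). The ETS letters were in 25 of 68 members (36.8%), 24 of 58 cytosolic ribosomal protein genes (41.4%), 22.3% of genes tested and 9.93% of all genes with a window. The YY1 letters were in 12 of 68 members (17.6%), against 5.93% of genes tested and 3.19% of all genes, and the NRF1 letters in 8 (11.8%), against 6.64% and 3.05%. The E-box was in 5 members (7.35%), against 12.4% and 8.09%. On chromosome 17, 3 of 7 members with a window held the ETS letters, 1 the NRF1 letters, 1 the YY1 letters and 1 the E-box, and off chromosome 17 the counts were 22, 7, 11 and 4 of 61. No hits of different motifs overlapped in a member's window.

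Stretches of 100 bases upstream of the start are printed 5′ to 3′ on the strand of the gene for the Mrps18 paralogs, for Mrpl2 and for called members off chromosome 17, since both genes that rose and the paralog that did not pass the test hold such letters. Capitals mark the motifs on either strand. The stretches of Mrps18a, Mrpl22 and Mrpl53 end at the base before the start, and the others lie further upstream. On GRCm38.p6 they are at chr17:46110904-46111003 (Mrps18a, plus strand), chr17:35916591-35916690 (Mrps18b, minus strand), chr5:100798519-100798618 (Mrps18c, plus strand), chr17:46646046-46646145 (Mrpl2, plus strand), chr11:58171564-58171663 (Mrpl22, plus strand) and chr6:83109008-83109107 (Mrpl53, plus strand).
Mrps18a: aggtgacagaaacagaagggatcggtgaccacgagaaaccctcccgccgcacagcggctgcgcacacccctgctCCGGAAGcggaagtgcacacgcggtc
Mrps18b: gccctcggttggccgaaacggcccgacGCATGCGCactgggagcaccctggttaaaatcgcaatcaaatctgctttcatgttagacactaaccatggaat
Mrps18c: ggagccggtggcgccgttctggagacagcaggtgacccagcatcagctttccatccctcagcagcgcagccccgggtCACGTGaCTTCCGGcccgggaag
Mrpl2: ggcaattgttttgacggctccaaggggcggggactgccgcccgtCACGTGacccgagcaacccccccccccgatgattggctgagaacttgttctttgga
Mrpl22: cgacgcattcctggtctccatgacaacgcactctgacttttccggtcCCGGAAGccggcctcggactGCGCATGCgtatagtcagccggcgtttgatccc
Mrpl53: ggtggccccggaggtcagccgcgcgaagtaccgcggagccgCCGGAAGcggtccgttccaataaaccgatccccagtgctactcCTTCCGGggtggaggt
Mrps18a and Mrpl53 show the ETS letters within 100 bases of the start, and Mrpl22 shows them with the NRF1 letters after them. Mrps18b shows the NRF1 letters and Mrpl2 the E-box. Mrps18c, whose level did not separate the groups, shows an E-box and the ETS letters side by side. Mrpl12, also called, has a window with 0 of the 4 motifs, as do Mrpl28, Mrpl14 and Mrps10. No RefSeq window was found for Mrps34, Mrpl4, Mrpl13, Mrpl15, Mrpl19, Mrpl38, Mrpl54, Mrps28 and Mrps35.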

How the data were processed

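The members and all gene lists were chosen with earlier results of these data known. The authors deposited 1 FPKM value per gene and sample for 24341 genes, with no value below 0.01. The submitters' processing notes name STAR 2.5.0b, Bowtie, bedtools 2.17.0, Cufflinks 2.2.1, DESeq2 and mm10 without their roles, and the study describes DESeq2 on counts, with a filter on sums under 10 and a threshold of 0.05. FPKM is not a count, so limma 3.58.1 (R 4.3.3, trend) was fitted to log2(FPKM + 1) where the FPKM of the 7 samples summed to 10 or more, without covariates, and p was Benjamini-Hochberg adjusted over the 10541 genes. On this scale the change of genes with low values is understated. FPKM values are relative to the depth of each sample and say nothing of RNA per cell.

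Groups and replicate numbers came from the sample labels. The mice are separate animals, and above the floor any pair of samples had at most 1 value in common. Positions are those of the deposited table with starts counted from 1, and strand, overlaps and copies come from GENCODE M21 and BLAST 2.17.0. Depth was read from 2243 single-transcript genes over 1500 bases long, where 70.9% to 77.5% of low values lay within 0.1 of a whole fragment, against 20% for evenly spread values. Counting errors cover counting only. All 77 members were found in GENCODE on the chromosome of the table.

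Named with values are the members of chromosome 17, the 3 most highly expressed members of each class, the 5 highest and 5 lowest differences, up to 10 further members with the smallest adjusted p, the Mrps18 paralogs, and at most 3 genes of each other list by mean FPKM. Genes of the lists were matched by symbol, 4 genes through older symbols in RefSeq. The fit was tested on simulated data. Alternatives were a pseudocount of 0.1, no filter, a filter at a sum of 70, TPM, median-of-ratios scaling, quantile normalization, a replicate block, removal of chromosome medians, and each sample left out. Values were summarised in Python 3.11.15 with pandas 2.3.3 and drawn with matplotlib 3.10.9.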

Additional observations from a re-analysis of the deposited data

Results flagged for a closer look

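The 4 preleukemic samples were examined for a sample that stands apart, by the gap to its nearest neighbour over the range of the 4, in 77 members and 19 summed or median values. A gap above the critical value of Dixon at the 95% level was found in 0 members and 4 sums, and chance gives about 5% of groups such a gap. Preleukemic sample 1 had the highest sum of erythroid genes, at 2763 FPKM. Preleukemic sample 2 had the lowest sum of cytosolic ribosomal protein genes, at 67026 FPKM, and the highest sum of mitochondrial regulators, at 370.2 FPKM. Preleukemic sample 3 had the lowest sum of genes for mitochondrial transcription and replication, at 138.7 FPKM. Groups of 3 are not examined in this way, so the leukemic samples were not.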

How the results depend on the processing

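Under TPM, the members' median log2 difference reversed to -0.010 and that of members off chromosomes 9, 12, 14, 15 and 17 to -0.040, while the medians fell to 0.44 on chromosome 17 and 0.25 for cytosolic ribosomal protein genes. TPM moved the median of all genes by -0.16, and distances from that median changed little (0.17 over the members in both). With TPM 6 members were called higher, 2 lower and 5 higher on chromosome 17. Quantile normalization gave 0.14 for cytosolic ribosomal protein genes (14 called higher and 1 lower, from 69 higher) and 0.12 for the members, so these sets lay close together. It takes out a rise shared by the highest values, where many cytosolic genes lie. Median-of-ratios scaling gave 0.43 for the cytosolic genes (70 called higher) and 0.17 for the members (11 called higher). With chromosome medians removed, 3 members and 0 on chromosome 17 were called, with a median of 0.24 on chromosome 17. The replicate block left 0 members called, on chromosome 17 also 0. Numbers of separate mice do not pair them, and deviations of same-numbered samples correlated at 0.03, 0.05 and -0.09, so the block says nothing of a weaker effect. Fits with a sample left out hold fewer samples. They called 1 to 12 members, 1 to 7 of them on chromosome 17, and 0 lower in each, and gave medians of 0.09 to 0.21 over the members, 0.50 to 0.62 on chromosome 17, 0.07 to 0.17 off the 5 chromosomes and 0.40 to 0.46 for cytosolic ribosomal protein genes.

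Of 420 comparisons of single named members with an alternative, 335 kept direction and side of the threshold, 67 lost the call, 5 gained it and 13 changed sign. These were Mrpl33 (-0.039), Mrps18c (-0.11), Mrps21 (-0.13) and Mrps26 (-0.074) with TPM, Mrps18c (-0.020) and Mrps21 (-0.048) with quantile normalization, Mrpl24 (0.019) and Mrps33 (0.0060) with chromosome medians removed, Mrps18c without leukemic sample 1 (-0.02) and without preleukemic sample 2 (-0.040), Mrps21 without leukemic sample 2 (-0.066, up to 0.13 without leukemic sample 3), and Mrps33 without leukemic sample 3 (0.045) and without preleukemic sample 3 (0.01). The cause was not tested. None of these had been called. With 3 and 4 samples a missed threshold does not show that a member was level.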

Other observations

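Mrps23, a small subunit gene on chromosome 11, stood apart in a single leukemic sample, and it was chosen after its values were seen. It was at 81.6 FPKM in leukemic sample 1 and at 43.5 and 41.8 FPKM in leukemic samples 2 and 3, while the preleukemic samples lay at 44.9, 41.2, 42.0 and 44.9 FPKM. The group test did not call it (log2 difference 0.29 ± 0.22, adjusted p = 0.39). Cuedc1, which the deposited table places in the same locus as Mrps23, was at 21.7 FPKM in leukemic sample 1 and at 1.39 to 6.62 FPKM in the other 6. The neighbouring Vezf1 was also highest in leukemic sample 1, at 52.4 FPKM against 28.8 to 39.7 FPKM. Srsf1, Dynll2 and Msi2, within 250 kb, were at 129, 61.3 and 40.2 FPKM in leukemic sample 1, at most 1.07 times the highest of the other samples. Chromosome 11 as a whole did not stand apart in that sample, with a median deviation of 0.02.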
